A study of Mus musculus with 6 samples.

Results

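The genes described here are 34 genes of the neuronal cytoskeleton and axon, measured in mouse carotid body and adrenal medulla. They are the genes on a list of neuronal markers for which a probe set, the group of short probes that reads 1 transcript on the array, was annotated to that symbol alone. All 34 of 34 had such a probe set, out of 18193 genes on the array. Each gene was read from its brightest probe set over the 6 arrays. The study had 6 arrays, 3 of carotid body and 3 of adrenal medulla. Every array carried RNA of 1 pool from untreated adult mice of the strain C57/BL6: 18 carotid bodies or 10 adrenal medullas, each from 10 mice. The 3 arrays of a tissue are 3 cohorts of animals, and an equal number in both tissues means an equal cohort, so cohort 1 gave carotid body array 1 and adrenal medulla array 1. The organs were used whole, so fewer cells of a type and less RNA per cell cannot be told apart in any result here.

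The carotid body is a small chemosensory organ on the carotid artery. Its glomus cells are excitable, release transmitter and are contacted by sensory axons whose cell bodies lie in the petrosal ganglion, and by axons of the nearby sympathetic ganglion. Chromaffin cells of the adrenal medulla are also of neural crest origin, and both cell types use many proteins first described in neurons. An axon holds its shape through neurofilaments, which are intermediate filaments of light, medium and heavy chains with peripherin and alpha-internexin. It also does so through microtubules stabilised by proteins such as tau, while MAP2 is found mainly in dendrites and cell bodies. Growth cone proteins such as GAP43 couple membrane, actin and microtubules at the growing tip. Most of an axon's RNA stays in the distant cell body, so RNA of an organ reports on neurons mainly where their cell bodies lie in it.

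The data gave no common direction for these genes. Calls were made with limma and needed both a Benjamini-Hochberg adjusted p under 0.05, taken over all 45037 probe sets tested, and a difference of at least 2-fold. Called higher in carotid body were 7 of the 34: Gap43, Ntrk3, Thy1, Sncg, Elavl2, Avil and Dpysl3. Called lower in carotid body were 4: Rbfox3, Cntnap2, Dcx and Mapt. The other 23 were not called. Over all genes, 5.91% were called higher and 6.08% lower. Differences are carotid body minus adrenal medulla on the log2 scale, and their median was 0.31 over the 34 genes and -0.04 over all genes. Every carotid body array was above every adrenal medulla array for 11 of the 34 genes and below for 5, against 17.8% and 26.1% of all genes. Detection calls were not used here, so a level near or below 5.28, the median over all probe sets, may be background. A difference with 1 tissue at such a level is the measured value, and the true one may be larger. That holds for Ntrk3 and Avil in adrenal medulla and for Dcx and Cntnap2 in carotid body. For Gap43, adrenal medulla array 1 was at such a level, at 5.24, and arrays 2 and 3 were above it, at 5.83 and 6.08. Among genes of other lists named below, it holds for Dclk1, Cntnap4, Runx1 and Mfap5 in adrenal medulla. In carotid body it holds for Nrcam, Sptbn4 and Prrxl1. Without carotid body array 2 the genes called higher were 4 (Gap43, Ntrk3, Thy1 and Sncg) and those called lower were 4.

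**Figure D1:**
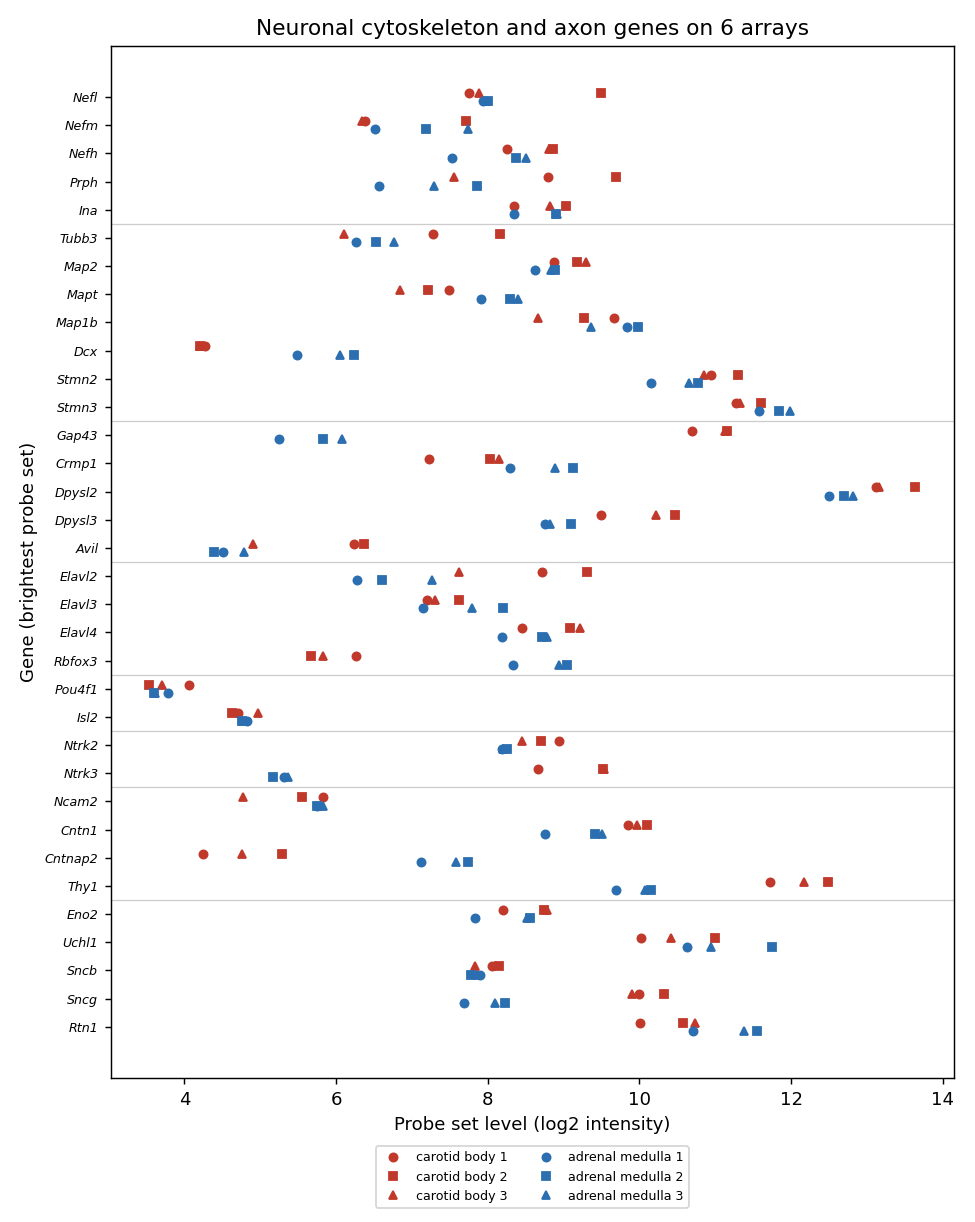
Log2 level of each of the 34 genes on each array, red for carotid body and blue for adrenal medulla, with 1 marker shape per cohort and grey lines between groups of genes. For Gap43 and Ntrk3 the tissues lie far apart, for Rbfox3, Cntnap2 and Dcx they lie apart in the other direction, and for most other genes the colours lie close together or overlap.

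Pools differed in the levels of markers of other cell types, and these values belong beside every result below. Of 13 measured Schwann and satellite glia markers 9 were called higher in carotid body and 0 lower, and their summed linear intensity ran from 17760 to 19610 in the carotid body pools and from 5732 to 6267 in the adrenal pools. All 9 measured fibroblast and matrix markers and 7 of 8 smooth muscle and pericyte markers were called higher in carotid body, with sums of 51270 to 60554 against 7555 to 9394 and of 37918 to 42810 against 6105 to 8965. Of 14 markers of catecholamine cells and granules 7 were called lower in carotid body and 0 higher, with sums of 48738 to 59985 against 104286 to 131567. Of 11 adrenal cortex markers 10 were called lower in carotid body, and 4 or 5 without carotid body array 2 or any 1 adrenal array. The number was 1 without cohort 2, 3 without cohort 3 and 3 when variances had an intensity trend and robust fitting. Their sum was 74195 to 100471 in the adrenal pools, and among the carotid body pools it was 31256 for cohort 1, 1988 for cohort 2 and 1543 for cohort 3. Cortex markers were thus bright in the medulla pools and in the first carotid body pool. The part of these differences in the results was not tested. As to RNA quality, control probe sets at both ends of Gapdh differed by 1.45, 1.04 and 0.59 (log2 units, 3' end brighter) on carotid body arrays 1 to 3 and by 0.13 to 0.61 on the adrenal arrays; the gap is larger with degraded RNA.

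**Figure D2:**
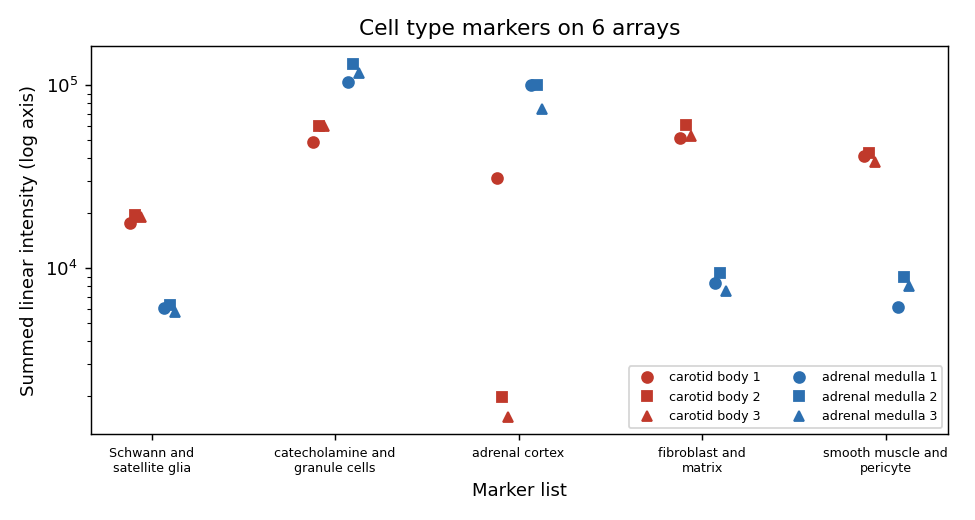
Summed linear intensity of 5 lists of cell type markers on each array (log axis), red for carotid body and blue for adrenal medulla, 1 marker shape per cohort. Glial, matrix and smooth muscle sums are higher on every carotid body array, catecholamine sums on every adrenal medulla array, and the cortex sum of carotid body array 1, at 31256, stands above 1988 and 1543 on the other carotid body arrays.

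Among growth cone and actin genes, 3 of 5 were called higher in carotid body and 0 lower. Gap43, a membrane protein of growth cones and regenerating axons that Schwann cells can also make, was at 10.70, 11.15 and 11.13 on carotid body arrays 1 to 3 and at 5.24, 5.83 and 6.08 on adrenal medulla arrays 1 to 3. All carotid body pools were high, and the groups did not come near each other. The difference was 5.27 ± 0.23 (SE, n = 3 per tissue; limma adjusted p = 1.94e-05), and 5.04 to 5.46 without each array in turn. Schwann cell markers were higher in the same pools, among them Mbp, which makes myelin basic protein, by 3.39 and S100b by 2.50.

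Dpysl3 and Dpysl2 encode collapsin response mediator proteins, which bind tubulin in growth cones. Dpysl3 was at 9.49, 10.47 and 10.21 in carotid body and at 8.76, 9.10 and 8.83 in adrenal medulla. All carotid body arrays were above all adrenal arrays, by 1.17 ± 0.25 (adjusted p = 0.0128). That call was lost without carotid body array 2 (0.96, adjusted p = 0.0404) and without adrenal medulla array 3 (adjusted p = 0.0509), and the other 2 probe sets of Dpysl3 gave 0.54 and 0.01. Dpysl2 was at 13.12, 13.64 and 13.16 against 12.49, 12.69 and 12.82; its difference of 0.64 ± 0.17 had an adjusted p of 0.0306 but was under 2-fold. Crmp1, of the same family, pointed the other way: it was at 7.23, 8.02 and 8.15 in carotid body and at 8.30, 9.12 and 8.89 in adrenal medulla. The groups did not overlap, and the difference of -0.97 ± 0.29 (adjusted p = 0.0492) was just under 2-fold. It was called lower when arrays were centred on their medians (-1.08) and when carotid body array 3 (-1.14) or the first adrenal array (-1.20) was left out.

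Avil encodes advillin, an actin-binding protein of sensory neurons and some other neural crest derivatives. It was at 6.23, 6.37 and 4.90 on carotid body arrays 1 to 3 and at 4.51, 4.39 and 4.79 in adrenal medulla. Arrays 1 and 2 were well above the adrenal pools, which were dim, and array 3 was close to them. The difference of 1.27 ± 0.36 (adjusted p = 0.0402) was called with all arrays, and its adjusted p rose to 0.0811 to 0.135 when carotid body array 1 or 2 or any adrenal array was left out. Without carotid body array 3 the difference was 1.74 (adjusted p = 0.000466).

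Of the neurotrophin receptors 1 of 2 was called, and both had higher values on every carotid body array. Ntrk3, the receptor for neurotrophin 3, which is found in sensory and sympathetic neurons and also in vessel wall cells, was at 8.66, 9.52 and 9.54 in carotid body and at 5.32, 5.16 and 5.37 in adrenal medulla. The carotid body pools were more than 3 log2 units above any adrenal pool. The measured difference was 3.96 ± 0.24 (adjusted p = 6.05e-05), with the adrenal level near the median probe set. Of its 8 probe sets 5 were called higher and 0 lower, with differences from -0.01 to 3.96.

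Ntrk2, the receptor for brain-derived neurotrophic factor, was at 8.95, 8.70 and 8.46 in carotid body and at 8.18, 8.25 and 8.20 in adrenal medulla. The groups did not overlap, and the difference of 0.49 ± 0.14 (adjusted p = 0.0449) was under 2-fold. The next brightest of its 8 probe sets was at 8.23, 8.42 and 8.40 against 7.06, 7.32 and 7.18 and was called higher (1.17 ± 0.12, adjusted p = 0.000615). The 6 dimmer probe sets lay between -0.57 and 0.14. Probe sets of 1 gene can read different transcript ends, and receptors of this family are made in forms with and without the kinase domain; which forms these probe sets read is not given in the sources used here.

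Of the axonal membrane genes 1 of 4 was called higher and 1 lower. Thy1, a small anchored surface protein of neurons that fibroblasts and T cells also carry, was at 11.73, 12.49 and 12.17 in carotid body and at 9.69, 10.15 and 10.08 in adrenal medulla. The tissues were clearly separate, with a difference of 2.16 ± 0.22 (adjusted p = 0.000531). In the same pools the fibroblast genes Mfap5, Col1a1 and Lum were higher by 5.47, 3.30 and 3.30.

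Cntnap2 encodes Caspr2, which holds potassium channels beside the node of Ranvier. It was at 4.25, 5.29 and 4.76 in carotid body and at 7.13, 7.74 and 7.58 in adrenal medulla. Every adrenal pool was above every carotid body pool, and the measured difference was -2.71 ± 0.28 (adjusted p = 0.000561), with the carotid body level possibly background. Its other 2 probe sets were dim in both tissues and gave -0.10 and 0.05. Kcna1 and Kcna2, channel subunits that Caspr2 is known to hold in place, went the opposite way, at 4.13 ± 0.14 and 3.28 ± 0.28 (adjusted p = 7.7e-06 and 0.000264).

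The contactin gene Cntn1, an axonal adhesion protein, was at 9.85, 10.10 and 9.96 in carotid body and at 8.75, 9.41 and 9.50 in adrenal medulla. The carotid body arrays were all higher, by 0.75 ± 0.21 (adjusted p = 0.0343), which is under 2-fold. Ncam2, an adhesion molecule of the NCAM family, was at 5.82, 5.55 and 4.77 against 5.74, 5.74 and 5.82, a difference of -0.39 (adjusted p = 0.323).

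RNA-binding proteins of neurons also split. The Elavl genes encode Hu proteins, which stabilise neuronal transcripts and are found in sympathetic and sensory neurons. Elavl2 was at 8.71, 9.30 and 7.62 in carotid body and at 6.28, 6.60 and 7.26 in adrenal medulla. The groups did not overlap, though carotid body array 3 and adrenal medulla array 3 lay close together. The difference was 1.83 ± 0.43 (adjusted p = 0.0187), and 2 of its 5 probe sets were called higher. Its adjusted p rose to 0.056 when carotid body array 2 was left out, and to 0.0617 and 0.0721 when the first or the second adrenal array was.

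Elavl3 was at 7.20, 7.62 and 7.31 against 7.15, 8.20 and 7.79, with overlapping groups (-0.33, adjusted p = 0.423), while its second brightest probe set was called lower (-1.04, adjusted p = 0.0234). Elavl4 was at 8.45, 9.09 and 9.21 against 8.19, 8.71 and 8.78 (0.35, adjusted p = 0.352). Rbfox3, the splicing factor known as the NeuN antigen of mature neurons, was lower in carotid body. It was at 6.26, 5.67 and 5.82 there and at 8.33, 9.04 and 8.94 in adrenal medulla, with no overlap. The difference was -2.85 ± 0.23 (adjusted p = 0.00022), and all 3 of its probe sets were called lower, from -2.85 to -1.01.

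**Figure D3:**
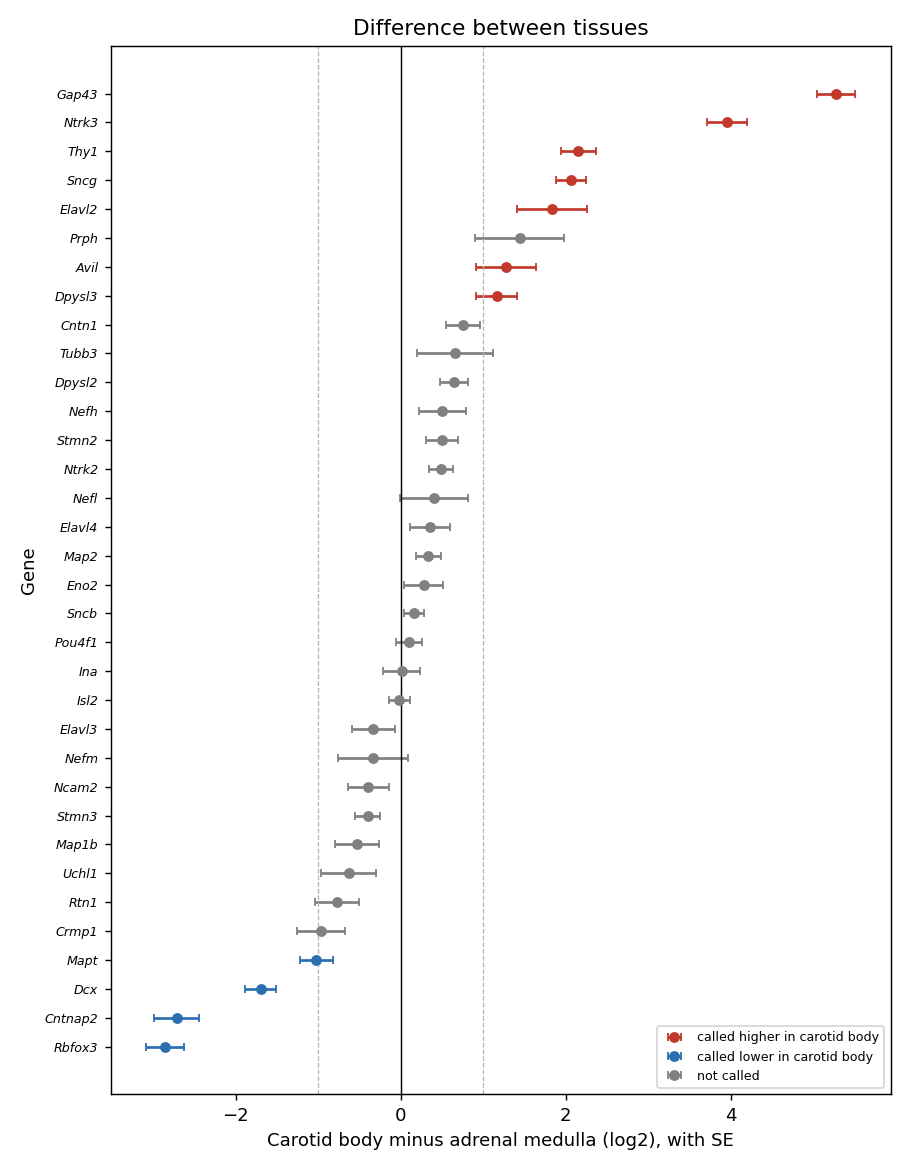
Difference between tissues for each of the 34 genes (points; bars are SE from limma), ordered by size, with dashed lines at 2-fold. The 7 genes called higher in carotid body end at 5.27 for Gap43, and the 4 called lower end at -2.85 for Rbfox3. Prph, at 1.44, is past the dashed line but was not called.

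Of 7 microtubule genes 0 were called higher and 2 were called lower. Dcx, doublecortin, a microtubule protein of migrating immature neurons, was at 4.28, 4.20 and 4.20 in carotid body and at 5.49, 6.23 and 6.06 in adrenal medulla. All carotid body values were below the median probe set, where they may be background, and the measured difference was -1.70 ± 0.19 (adjusted p = 0.000916). A second probe set of Dcx gave -1.65 (adjusted p = 0.00565), and the 2 dimmest gave 0.05 and -0.02. Mapt, which encodes tau, was at 7.49, 7.21 and 6.84 against 7.92, 8.30 and 8.40. The groups did not overlap, and the difference of -1.02 ± 0.20 (adjusted p = 0.00934) barely reached 2-fold. It fell under 2-fold after quantile normalization (-0.89), and when carotid body array 3 (-0.85), the second adrenal array (-0.98) or the third (-0.93) was left out. Of its 4 probe sets 3 were called lower, and the largest difference was -1.71 (adjusted p = 0.00342).

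The other microtubule genes were not called. Tubb3, the neuronal beta-tubulin, was at 7.28, 8.15 and 6.10 against 6.27, 6.53 and 6.77 (0.66 ± 0.46, adjusted p = 0.363), and is taken up again with the spread. Map2, of dendrites and cell bodies, was at 8.87, 9.18 and 9.30 against 8.62, 8.89 and 8.83 (0.34, adjusted p = 0.155); its second brightest probe set was called higher (1.24, adjusted p = 0.0105). Map1b, a microtubule protein of growing axons, was at 9.66, 9.27 and 8.67 against 9.84, 9.98 and 9.37 (-0.53, adjusted p = 0.212).

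Stathmins bind free tubulin. Stmn2, the stathmin of growing and injured axons, was at 10.94, 11.30 and 10.85 against 10.16, 10.77 and 10.65, so that the groups did not overlap (0.50, adjusted p = 0.11). Stmn3 was at 11.27, 11.61 and 11.32 against 11.58, 11.84 and 11.98, with overlapping groups and the other sign (-0.40, adjusted p = 0.102). For neither stathmin did the difference at the brightest probe set pass the test on the deposited values. The second probe set of Stmn3 gave -0.62 (adjusted p = 0.0397), without overlap but under 2-fold, and that of Stmn2 gave 0.33 (adjusted p = 0.403). With median centring the brightest probe set of Stmn3 gave -0.51 (adjusted p = 0.0438), also under 2-fold.

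None of the 5 intermediate filament genes was called by limma. Unadjusted p was under 0.05 for 1 of them, Prph, and the alternatives called 0 of the other 4. Prph encodes peripherin, the filament of peripheral neurons. It was at 8.80, 9.69 and 7.55 in carotid body and at 6.57, 7.86 and 7.29 in adrenal medulla. In each cohort the carotid body pool was above the adrenal pool, but carotid body array 3 was below adrenal array 2. The difference of 1.44 ± 0.53 had an adjusted p of 0.0947, and of 0.0351 with the cohort as a replicate block. Without carotid body array 3 it was 2.00 (adjusted p = 0.0106). Its 3 dimmer probe sets gave 0.23 to 0.66.

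The light chain gene Nefl was at 7.75, 9.49 and 7.89 in carotid body and at 7.93, 8.00 and 7.99 in adrenal medulla. Carotid body array 2 alone was high, the adrenal pools were nearly equal, and the difference was 0.40 ± 0.42 (adjusted p = 0.555). Its second probe set gave -1.22 (adjusted p = 0.0965), with carotid body array 2 again highest of the 3 carotid body arrays, at 8.44 against 6.82 and 6.55. The medium chain gene Nefm was at 6.38, 7.71 and 6.35 against 6.52, 7.19 and 7.73 (-0.33, adjusted p = 0.643), and again carotid body array 2 was the high one. Nefh, the heavy chain, was at 8.25, 8.86 and 8.81 against 7.53, 8.37 and 8.51 (0.50, adjusted p = 0.253, or 0.0398 with the replicate block). Ina, alpha-internexin, was at 8.35, 9.03 and 8.83 against 8.34, 8.90 and 8.92 and differed by 0.01 ± 0.22 (adjusted p = 0.974).

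Of the remaining proteins, gamma-synuclein, Sncg, a soluble protein of peripheral neurons that fat cells also make, was called higher. It was at 10.00, 10.33 and 9.90 in carotid body and at 7.69, 8.23 and 8.10 in adrenal medulla. The tissues were far apart, with a difference of 2.07 ± 0.18 (adjusted p = 0.000301). Its relative Sncb was at 8.06, 8.15 and 7.84 against 7.90, 7.78 and 7.86 (0.16, adjusted p = 0.402).

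Eno2, Uchl1 and Rtn1 are general markers of neurons and neuroendocrine cells. Eno2, neuron-specific enolase, was at 8.21, 8.74 and 8.79 against 7.83, 8.55 and 8.51 (0.28, adjusted p = 0.471). The ubiquitin hydrolase gene Uchl1 was at 10.02, 10.99 and 10.41 against 10.62, 11.74 and 10.94 (-0.63, adjusted p = 0.23). Rtn1, a reticulon of the endoplasmic reticulum, was at 10.01, 10.57 and 10.73 against 10.70, 11.55 and 11.38 (-0.78, adjusted p = 0.0744). None of the 3 was called with all arrays, and each group overlapped the other. Without adrenal medulla array 1 Rtn1 was called lower (-1.03, adjusted p = 0.0252). Within cohorts Eno2 was higher in carotid body in 3 of 3 and Uchl1 and Rtn1 in 0 of 3. With the cohort as a replicate block the adjusted p was 0.149 for Eno2, 0.0134 for Uchl1 and 0.00876 for Rtn1, all still under 2-fold.

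The transcription factors Pou4f1 and Isl2 were dim in both tissues. Pou4f1, the Brn3a factor of sensory neurons, was at 4.06, 3.54 and 3.71 in carotid body and at 3.79, 3.59 and 3.61 in adrenal medulla. Isl2, a factor of motor and sensory neurons, was at 4.71, 4.63 and 4.97 against 4.82, 4.76 and 4.77. These values lie below 5.28, the median over all probe sets, the groups overlapped, and the differences were 0.10 and -0.02 (adjusted p = 0.703 and 0.95). At this brightness expression and background cannot be told apart.

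Sequences upstream of the transcription start are shown for 6 of the 11 called genes, since genes on either side of the comparison can be set side by side there. The RefSeq promoter table (GRCm38.p6) matched 24 of the 34 genes, 6 of the called ones among them, all printed. For each gene its first listed start was taken and the 150 bases before it are printed 5′ to 3′ on the gene's strand, ending at the base before the start. Capitals mark matches, on either strand, to 1 of 6 motifs. The TATA box was searched as TATAAA and the GC box as GGGCGG. The box that factor NF-Y binds was searched as CCAAT. The cyclic AMP response element was searched as TGACGTCA. For REST, a repressor of neuronal genes, the left part of its site was searched as TTCAGCACC and the right part as GGACAGC. No printed match overlaps another.
Sncg, chr14:34374670-34374819, minus strand: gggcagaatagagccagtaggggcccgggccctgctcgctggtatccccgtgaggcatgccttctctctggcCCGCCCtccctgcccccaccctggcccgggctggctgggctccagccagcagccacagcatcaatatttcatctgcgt
Elavl2, chr4:91399985-91400134, minus strand: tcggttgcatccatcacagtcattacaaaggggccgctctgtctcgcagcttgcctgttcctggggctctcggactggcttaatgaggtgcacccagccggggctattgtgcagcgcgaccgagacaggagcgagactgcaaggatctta
Avil, chr10:127000559-127000708, plus strand: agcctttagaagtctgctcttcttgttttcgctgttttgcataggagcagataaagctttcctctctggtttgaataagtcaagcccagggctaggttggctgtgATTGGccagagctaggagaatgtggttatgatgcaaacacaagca
Rbfox3, chr11:118761042-118761191, minus strand: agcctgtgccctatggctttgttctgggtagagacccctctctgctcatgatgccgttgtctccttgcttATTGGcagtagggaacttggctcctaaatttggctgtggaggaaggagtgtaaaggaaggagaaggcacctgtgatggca
Cntnap2, chr6:45059911-45060060, plus strand: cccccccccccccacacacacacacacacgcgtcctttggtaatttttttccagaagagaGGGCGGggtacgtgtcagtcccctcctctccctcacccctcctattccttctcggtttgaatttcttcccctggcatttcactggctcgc
Dcx, chrX:143933220-143933369, minus strand: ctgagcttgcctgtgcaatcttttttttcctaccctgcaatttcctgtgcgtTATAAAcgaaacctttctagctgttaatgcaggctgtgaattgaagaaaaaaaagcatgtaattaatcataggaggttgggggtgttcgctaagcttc

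Sncg, Elavl2 and Avil were higher in carotid body and the other 3 were lower. Sncg had a GC box 73 to 78 bases before the start on the opposite strand, and Cntnap2 had 1 at 85 to 90 bases on its own strand. On the opposite strand Rbfox3 had a CCAAT match at 76 to 80 bases and Avil 1 at 41 to 45 bases, and on its own strand Dcx had a TATA match at 93 to 98 bases. Elavl2 had 0 matches in this window. The RefSeq promoter table lists 6 starts for Elavl2, 2 for Cntnap2 and 2 for Dcx, and matches at their other starts are not given here. Of 32851 windows of this length 28.6% held the GC box, 24.5% CCAAT, 7.57% the TATA box, 1.36% the cyclic AMP element, 0.158% the left part of the REST site and 3.11% the right part. The GC content was 67.3% for Sncg, 58.7% for Elavl2, 45.3% for Avil, 52.0% for Rbfox3, 57.3% for Cntnap2 and 40.7% for Dcx, with a median of 54.0% over all windows. These matches describe letters in a window and were not tested against expression.

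The carotid body pools differed among themselves in these genes. The range over the 3 carotid body arrays had a median of 0.67 log2 units for the 34 genes and of 0.36 for all genes (0.41 for genes brighter than the median probe set). In adrenal medulla these medians were 0.58 and 0.27. A range over 1 was found for 8 of the 34 genes in carotid body (23.5%, against 5.34% of all genes) and for 4 in adrenal medulla (11.8%, against 2.52%). The 8 were Prph at 2.13, Tubb3 at 2.05, Nefl at 1.74, Elavl2 at 1.68, Avil at 1.46, Nefm at 1.37, Ncam2 at 1.05 and Cntnap2 at 1.04. The ranges of the other 26 were 0.08 to 0.99. With 3 arrays of a tissue these ranges were not tested.

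**Figure D4:**
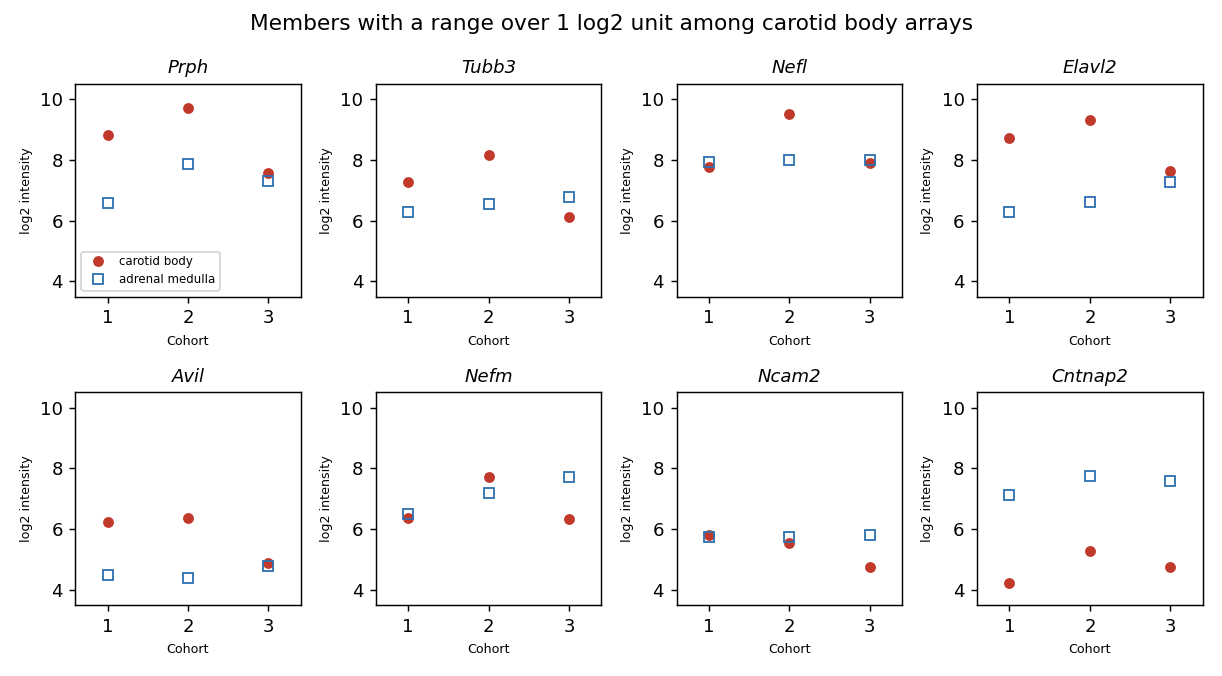
Log2 level by cohort of the 8 genes with a range over 1 among carotid body arrays, filled red circles for carotid body and open blue squares for adrenal medulla. Prph, Tubb3, Elavl2 and Avil are low on carotid body array 3, near the adrenal value of that cohort, while Nefl and Nefm are high on carotid body array 2.

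In 7 of these 8 genes carotid body array 2 was the highest, and in 6 of them array 3 was the lowest. Over the 34 genes, array 2 was highest for 20 (58.8%, against 30.8% of all genes), array 1 was lowest for 18 (52.9%, against 42.1%) and array 3 for 12 (35.3%, against 27.7%). In adrenal medulla array 1 was lowest for 28 of 34 (82.4%, against 40.5% of all genes). Tubb3 was at 6.10 on carotid body array 3, below every adrenal array, and without that array its difference was called (1.19, adjusted p = 0.0172). Schwann and satellite markers summed to 17760, 19610 and 19022 on carotid body arrays 1 to 3, and catecholamine markers to 48738, 59942 and 59985. A sum can hide single genes of its list. Dbh, of the catecholamine list, was at 10.20, 10.23 and 7.86 on these arrays and so was low on array 3. Th, of the same list, was at 11.42, 11.89 and 11.76 and was not. The part of these levels in the spread was not tested.

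Other genes of the axon were counted on the same fit. Of 23 further microtubule and growth cone genes 8 were called higher in carotid body and 1 lower, with a median difference of 0.59. Dclk1, a doublecortin-like kinase, was higher by 3.47 ± 0.31, Tubb2b, a beta-tubulin, by 3.05 ± 0.25, and Marcks, an actin-linking membrane protein, by 1.81 ± 0.12 (adjusted p = 0.00034, 0.000233 and 9.45e-05). Tuba4a, an alpha-tubulin, was the 1 called lower (-1.05). It was not called without adrenal medulla array 3, without cohort 3, after quantile normalization or with the mean of all probe sets. Without cohort 2 those called higher were 4. Of 13 genes of kinesin, dynein and dynactin motors 0 were called by limma in either direction, with a median of -0.10 and an unadjusted p under 0.05 for 2. The brightest, Kif1b and Kif5b, differed by -0.27 and -0.20 (adjusted p = 0.335 and 0.584).

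Of 17 further genes of axonal adhesion and the node of Ranvier 4 were higher and 2 lower, with a median of 0.13. Besides Kcna1 and Kcna2, the higher ones were Chl1 at 2.69 and Cntnap4 at 1.40, which like the other genes past the first 3 of a list were named after their values were seen. The lower ones were Sptbn4, a spectrin of nodes, at -1.62 and Nrcam. Nrcam, an adhesion molecule that gathers sodium channels at nodes, differed by -3.05 ± 0.29 (adjusted p = 0.000427). Of 8 measured genes of neurotrophins, glial cell line-derived factor receptors and related receptors 4 were higher and 0 lower, with a median of 1.15: Gfra2 at 1.40, Gfra1 at 1.40, Ret at 1.29 and Gfra3 at 1.25. Without adrenal medulla array 1 the count of higher genes was 2, and without cohort 2 it was 1.

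Markers of sensory and autonomic ganglion neurons were dim in part and bright in part. Of 23 measured genes 12 were below the median probe set level of 5.28 in both tissues, as were 32.1% of all genes. Of the 23, 1 was called higher in carotid body and 4 lower, with a median of 0.01. The sensory neuron genes P2rx3, Trpv1, Scn10a and Slc17a6, an ATP-gated channel, a heat-gated channel, a sodium channel and a glutamate transporter, were among the dim ones. Their means in carotid body were 4.57, 3.62, 3.54 and 3.67, and their differences were 0.01, 0.10, -0.01 and 0.08. Among the bright ones were the transcription factors Isl1 and Phox2a, with carotid body means of 10.79 and 9.93, and the peptide gene Npy, with 11.44. Chat, Slc18a3 and Slc5a7, genes of cholinergic neurons, were dim too, with carotid body means of 3.95, 3.80 and 3.69. The sensory neuron genes Runx1, Scn9a and Piezo2 had carotid body means above the median probe set, at 6.71, 5.91 and 5.69. Piezo2 lay near that median, at 5.33 on carotid body array 3, and may be background. Isl1, Phox2a and Npy were also bright in adrenal medulla, with means of 10.76, 10.95 and 14.43. Whether dim and bright genes divide into sensory and autonomic ones was not tested. Prrxl1, a homeobox gene of sensory neurons, was lower in carotid body, with a measured difference of -3.88 ± 0.26 (adjusted p = 9.45e-05) from a carotid body level of 4.86, which may be background. Npy, a peptide of sympathetic neurons and chromaffin cells, was lower with -2.99, and the homeobox gene Hoxb5 with -1.82. The others called were Phox2a at -1.02 and Runx1 at 1.56. Peptide genes also varied among the carotid body pools. Vip was at 7.14, 6.37 and 9.76 on carotid body arrays 1 to 3 and Tac1 at 5.05, 4.61 and 6.51, both highest on array 3 and neither called. Npy was at 11.66, 11.40 and 11.27, lowest on array 3. Without adrenal medulla array 2 or 3 the number called lower was 2. The number called higher was 2 without carotid body array 2 and 2 with the cohort as a replicate block. It was 0 with the mean of all probe sets and 0 with the second brightest probe set.

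Probe sets of 1 gene often differed. Of the 34 genes 13 had 1 probe set and 21 had several, 87 probe sets in all, and 0 genes had probe sets called in opposite directions. Among the called genes, Gap43, Thy1, Sncg and Avil rest on a single probe set. Rbfox3 was called on all of its probe sets, Mapt on 3 of 4, Dcx on 2 of 4 and Cntnap2 on 1 of 3.

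**Figure D5:**
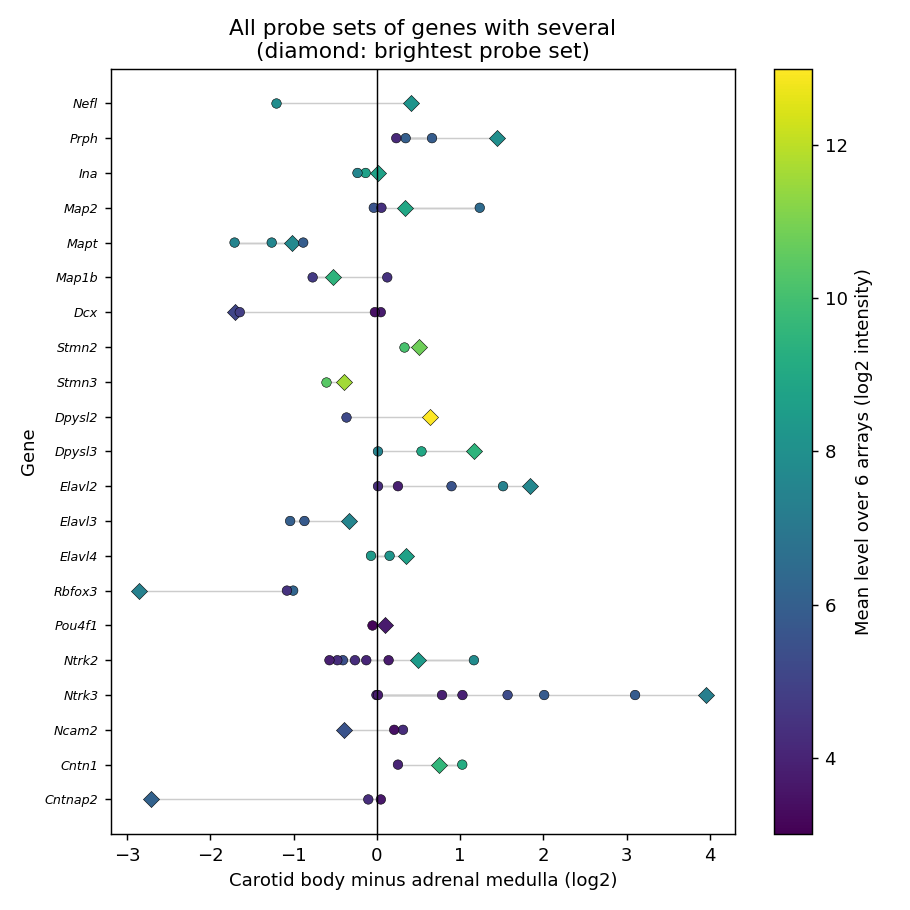
Difference between tissues for every probe set of the 21 genes with several, coloured by mean level; diamonds mark the brightest probe set of each gene. Many of the dim probe sets lie near 0, and for Nefl, Dpysl2, Ina, Elavl4, Pou4f1 and Ncam2 the brightest and second brightest probe sets have opposite signs.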

How the data were processed

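The authors deposited 1 table of log2 probe set values. Their software was Affymetrix Expression Console, as the submitters' processing notes name it; how it summarised and normalized the probes is not given in the sources used here. The log2 scale was read from the deposited values, whose range over all arrays is 2.70 to 14.97. The RNA was labelled with biotin by a 3' IVT kit, per the labels' protocols. No further normalization was applied. Precision is limited by the number of arrays.

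The table holds 45101 probe sets, of which 64 controls of the manufacturer were set aside. Names came from the platform annotation of GEO: 34945 probe sets had 1 symbol, 932 several and 9160 none, and probe sets with several or none were not used as genes. All 34 symbols matched a RefSeq table by gene ID. Each gene was represented by its brightest probe set.

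The 45037 others entered 1 limma fit of 2 tissues with no block (limma 3.58.1, R 4.3.3), with two-sided moderated tests and Benjamini-Hochberg adjustment; the script was tested on simulated data. The genes and lists were chosen with earlier results of these data known. All 34 genes are named; in the other lists the 3 called genes with the largest difference are named, or the 2 brightest where none was called, and others only where said or as defining markers. List genes without a probe set of their own symbol are not analysed here.

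Same cohort numbers pair the samples, as the series' design text states. Deviations from the tissue means correlated at 0.22, 0.08 and 0.16 in cohorts 1, 2 and 3 and at -0.21 to 0.10 between cohorts. Alternatives were the cohort as a block, quantile normalization, median centring, array weights, removal of dim probe sets, variances with a trend and robust fitting, other probe sets of a gene, adjusted p alone, and leaving out each array and cohort. A pseudocount was planned for linear values and not run, since the values are log2.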

Additional observations from a re-analysis of the deposited data

How the results depend on the processing

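Over 18 alternatives and the 34 genes, 561 of 608 differences kept their side of the threshold, 29 lost and 18 gained a call, and 0 called differences turned sign. Differences that were not called changed sign 26 times in 9 genes. Among the kept are 26 values of genes with 1 probe set, whose difference other probe sets could not change. With the mean of all probe sets the adjusted p of these genes was computed anew and could change. Ntrk3 and Rbfox3 kept their calls under every alternative run, and Gap43, Thy1 and Sncg, with 1 probe set each, under all that could change them. The number called higher, 7, was 4 without cohort 2 and 4 to 9 without single arrays, and that called lower, 4, was 2 with the mean of all probe sets. With the cohort as a replicate block the counts were 8 and 4, Prph was gained and no other call of the 34 changed. Of the called genes, Dcx (-0.83), Cntnap2 (-0.92), Dpysl3 (0.57) and Elavl2 (0.90) fell under 2-fold with the mean of all probe sets. Avil lost its call after quantile normalization (adjusted p = 0.0526). With centring, the median over all probe sets shifted by -0.11. Removing dim probe sets left 4 of the 34 genes untested, and counts were 6 and 3. Ranges among carotid body arrays moved by at most 0.15 with quantile normalization and 0.07 with centring. Without detection calls, what dim probe sets can show is limited. Where a call changed, the cause was not tested.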
